A study of Mus musculus and Acomys cahirinus with 25 samples.

Results

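The expression of 10 genes of the PDGF (platelet-derived growth factor) system and of skin fibroblast lineages was followed in wounds of laboratory and spiny mice. The genes were 3 PDGF ligands (Pdgfa, Pdgfb and Pdgfc), both PDGF receptors (Pdgfra and Pdgfrb) and 5 fibroblast lineage markers (Dpp4, En1, Ly6a, Mfap5 and Thy1). They were chosen by symbol, and all 10 were found among the 24500 gene rows of each of 25 RNA-seq libraries. The laboratory mice were wounded through the full skin of the back at 4 weeks of age and sampled at post-wound day (PWD) 14, with the age as the study's methods give it. Wild-type mice gave 2 epidermis libraries of the wound center and 2 of the wound margin, and 5 dermis libraries of the wound center and 2 of the margin. By the methods C57BL/6J was the main strain and both sexes were used, and the labels name no strain for any library. In 2 further libraries of wound center dermis the mice were K14-Cre-Twist1, in which Cre is driven by the keratin 14 promoter, so that Twist1 is deleted in the epithelium and not in the dermal fibroblasts that these libraries hold. These mice came, by the methods, from a cross of Twist1 conditional null with Tg(KRT14-cre)1Amc/J mice, and their controls were wild-type Twist1+/+ mice, the labels not saying which wild-type libraries are of these mice. The spiny mice (Acomys cahirinus, labelled wild type, and 2 months old by the methods) gave whole wounds at PWD14, 21 and 28 and unwounded skin at PWD0, with 1 or 2 libraries of epidermis and of dermis at each time. The days are those of the labels, and the study's own list of samples gives slightly different days for the wounded spiny mice.

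PDGFs are secreted dimers that act on a pair of receptor tyrosine kinases, of which PDGFRA marks fibroblasts and PDGFRB marks pericytes, vascular smooth muscle and many fibroblasts. In skin, epithelial PDGF-A acts on the PDGFRA of dermal fibroblasts and of the dermal condensate under the hair germ, and PDGF-B from endothelium recruits pericytes. Many fibroblasts of the back skin descend from cells that once expressed the homeobox gene En1, and skin fibroblasts divide into an upper papillary lineage, in which DPP4 (CD26) is found, and a lower reticular and fascial lineage, in which LY6A (Sca-1) is found.

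Laboratory mouse libraries held 19413261 to 86532134 reads on genes and spiny mouse libraries 5669760 to 34751956, and levels are given in CPM, a gene's counts per 1000000 reads on genes. The smallest detectable amount was taken as 3 counts, which was 0.0347 to 0.155 CPM in laboratory mouse and 0.0863 to 0.529 CPM in spiny mouse libraries and covers counting error only. The 10 keratinocyte genes of a list, taken to check the tissue labels, summed to 149600 to 210100 CPM in laboratory mouse epidermis and to 12.5 to 4224 CPM in wild-type dermis. K14-Cre-Twist1 dermis replicate 2 stood apart, with 33570 CPM of these genes against 967 in replicate 1, and with 926 of 11226 genes at 0 that had a median of at least 5 CPM in the other laboratory mouse dermis libraries (0 to 92 genes in each of the other 8). Spiny mouse dermis at PWD0 also held more keratinocyte RNA (10860 and 6914 CPM) than at PWD21 (650 and 1238). Differences were tested across all genes with edgeR's quasi-likelihood test, TMM scaling and Benjamini-Hochberg adjustment, and a gene was called at an adjusted p under 0.05. The study describes its RNA-seq libraries as independent duplicates, and the labels name no animals, so that whether libraries of different tissues or regions share a mouse is not given. The laboratory mouse libraries differed in sex-linked genes. The Y-linked genes Ddx3y, Eif2s3y, Kdm5d and Uty were all at 0, and Xist, which the inactive X chromosome of females expresses, was at 508 to 671 CPM, in wild-type wound center dermis replicates 3, 4 and 5 and in margin epidermis replicate 2. In the other 9 laboratory mouse libraries, both K14-Cre-Twist1 ones among them, the 4 Y-linked genes summed to 163 to 367 CPM and Xist had at most 1 count. In the spiny mouse, Xist was at 69.9 CPM in PWD0 epidermis, 153 CPM in PWD28 epidermis and 99.0 CPM in PWD28 dermis. The rest were at 0.286 to 4.94 CPM. No spiny mouse library had all 4 Y-linked genes at 0, and sex was not assigned there. In such whole-tissue RNA, fewer cells of a type and less RNA per cell cannot be told apart.

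Pdgfra, Pdgfrb, En1 and Mfap5 were higher in dermis than in epidermis in both species, whereas Pdgfa and Dpp4 did not pass the test in either. In the laboratory mouse, 7 of the 10 genes were higher in dermis than in epidermis at the wound margin and 7 at the wound center, and none was lower, against 47.9% and 51.7% of all tested genes called in either direction. In the spiny mouse at PWD21, 5 were higher in dermis and 1, Thy1, was higher in epidermis, against 62.9% of all genes. Of all tested genes, 4033 of 14964 were called higher in dermis at the margin, 3746 of 15017 at the center and 5011 of 14966 in the spiny mouse. The 10 genes were picked as fibroblast and PDGF genes, so that these counts do not test them as a set. In the laboratory mouse the labels give paired-end reads for epidermis and single-end reads for dermis, so that tissue and read type cannot be told apart there. The median log2 fold change of the 10 genes was 2.92, 3.38 and 1.11 in the 3 comparisons, against 0.16, 0.08 and 0.06 over all genes. These comparisons share libraries with those between regions and between days, and each is given with its own values.

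Pdgfra, the receptor that binds both PDGF-A and PDGF-C dimers, was at 234 and 294 CPM in the 2 wild-type margin dermis libraries and at 230 to 712 CPM in the 5 of wound center dermis. In laboratory mouse epidermis it was at 8.48 and 6.87 CPM in the center and at 3.54 and 0.728 CPM in the margin. No epidermis library came near a dermis library, and the log2 fold change of dermis over epidermis was 6.26 ± 0.65 (standard error, adjusted p = 3.76e-05, edgeR) at the margin and 5.03 ± 0.56 (adjusted p = 7.28e-05, edgeR) at the center. In spiny mouse PWD21, Pdgfra was at 407 and 305 CPM in dermis and at 3.16 and 2.17 CPM in epidermis, a log2 fold change of 6.90 ± 0.33 (adjusted p = 6.14e-06, edgeR).

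Pdgfrb, the receptor of PDGF-B, was at 288 and 196 CPM in margin dermis against 1.13 and 1.76 CPM in margin epidermis, a log2 fold change of 6.52 ± 0.45 (adjusted p = 6.27e-06, edgeR). At the wound center the 5 dermis libraries ranged from 280 to 597 CPM around a median of 425, and the epidermis libraries were at 19.6 and 15.9 CPM. The difference between tissues, 3.95 ± 0.40 on the log2 scale (adjusted p = 4.51e-05, edgeR), stood beside the larger value at the margin, and the difference between these contrasts was tested separately. In spiny mouse PWD21 the dermis held 227 and 371 CPM and the epidermis 1.42 and 0.285 CPM, a log2 fold change of 8.16 ± 0.65 (adjusted p = 3.73e-05, edgeR).

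The ligands were less divided between the tissues. Pdgfc, a ligand that is secreted in a latent form, was the only ligand called in the laboratory mouse, with 62.5 and 60.2 CPM in margin dermis against 0.992 and 3.16 CPM in margin epidermis (log2 fold change 3.97 ± 0.52, adjusted p = 0.000168, edgeR). At the wound center it was at 22.5 to 77.9 CPM in dermis and at 3.27 and 1.77 CPM in epidermis (log2 fold change 3.52 ± 0.60, adjusted p = 0.000996, edgeR). In spiny mouse PWD21 the tissues lay closer, with 19.6 and 15.8 CPM in dermis and 9.75 and 12.8 CPM in epidermis, and the log2 fold change of 0.54 ± 0.25 did not pass the test (adjusted p = 0.0966, edgeR). Whether the tissue difference differed between the species was not tested.

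Pdgfb was the ligand called in the spiny mouse, at 19.0 and 30.7 CPM in PWD21 dermis against 7.24 and 7.14 CPM in epidermis, a log2 fold change of 1.67 ± 0.31 (adjusted p = 0.00247, edgeR). In the laboratory mouse its CPM values were 51.9 and 37.0 in margin dermis and 12.7 and 39.7 in margin epidermis, which overlapped. Its log2 fold change there was -0.05 with TMM scaling and 0.74 with library size alone, and neither passed the test (adjusted p = 0.947 and 0.253, edgeR). Without TMM factors the median of all genes moved from 0.16 to 0.98 at the margin and from 0.08 to 0.80 at the center, and Pdgfb at the margin was the only one of the 10 genes whose sign changed in the 3 tissue comparisons. Calls made with library size alone were Dpp4 at the margin (1.67, adjusted p = 0.003) and Pdgfa (1.72, adjusted p = 0.00974) and Pdgfb (0.84, adjusted p = 0.00982) at the center, all higher in dermis. Of all genes, 52% at the margin and 54% at the center were called with library size alone.

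Pdgfa, the epithelial ligand of the hair follicle, was not called in any of the 3 comparisons with TMM scaling. It was at 16.2 and 16.5 CPM in margin dermis and 1.45 and 8.76 CPM in margin epidermis of the laboratory mouse, without overlap (log2 fold change 0.80 ± 0.69, adjusted p = 0.365, edgeR). In the spiny mouse at PWD21 the values of 25.4 and 37.1 CPM in dermis and 37.1 and 28.4 CPM in epidermis overlapped, with a log2 fold change of -0.19 ± 0.28 (adjusted p = 0.581, edgeR).

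**Figure D1:**
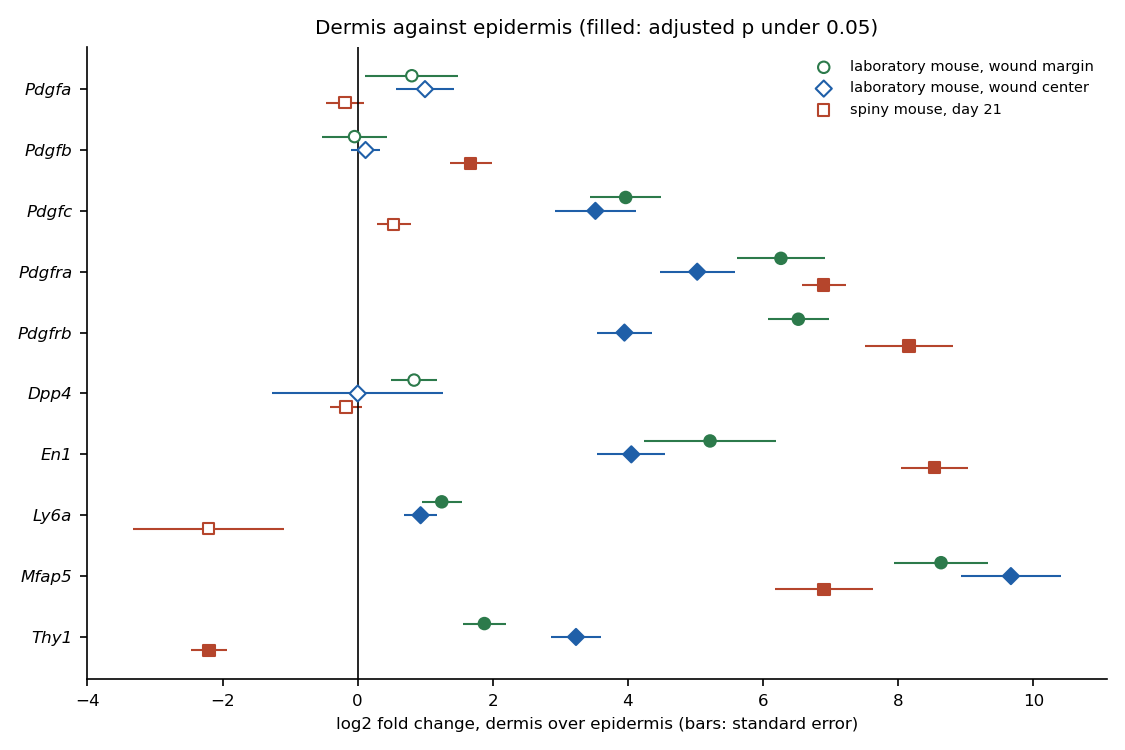
Log2 fold change of dermis over epidermis (x axis) for each of the 10 genes (rows) in 3 comparisons, with bars of 1 standard error and filled symbols for an adjusted p under 0.05. Both receptors, En1 and Mfap5 lie far to the right in all 3 comparisons, and Thy1 lies to the right in the laboratory mouse (1.88 and 3.23) and to the left in the spiny mouse (-2.20).

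Among the lineage markers, Mfap5, which encodes a microfibril-associated glycoprotein of reticular and fascial fibroblasts, was at or below 0.705 CPM in every epidermis library. It was at 235 and 417 CPM in laboratory mouse margin dermis, where the margin epidermis libraries held 0 and 61 counts (0.705 CPM), and at 149 to 235 CPM in wound center dermis, where the epidermis libraries held 16 and 1 counts. With counts this low in epidermis, the fitted log2 fold changes of 8.63 and 9.67 (adjusted p = 9.52e-06 and 5.42e-06, edgeR) depend on the prior count. En1 was low in every epidermis library, at 0.0578 to 0.941 CPM in the laboratory mouse and at 0 to 0.310 CPM in the spiny mouse. In dermis it was at 13.3 to 31.0 CPM in the 7 wild-type libraries of the laboratory mouse and at 56.1 and 86.8 CPM in spiny mouse PWD21, and En1 was called in all 3 tissue comparisons (log2 fold changes 5.22, 4.05 and 8.54).

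Thy1, a surface glycoprotein of fibroblasts that T cells and nerves also carry, had opposite orders in the 2 species. In the laboratory mouse it was at 391 and 322 CPM in margin dermis and 48.1 and 61.7 CPM in margin epidermis, a log2 fold change of 1.88 ± 0.32 (adjusted p = 0.00087, edgeR). At the wound center, dermis ranged from 504 to 1082 CPM and epidermis was at 49.9 and 43.5 CPM, a log2 fold change of 3.23 ± 0.37 (adjusted p = 9.23e-05, edgeR). In spiny mouse PWD21, dermis was at 71.2 and 43.1 CPM and epidermis at 219 and 262 CPM, so that Thy1 was lower in dermis by a log2 fold change of -2.20 ± 0.26 (adjusted p = 0.000266, edgeR). The groups did not overlap in any of the 3 comparisons. The difference between the species was not tested, since the spiny mouse reads were aligned to the mouse genome and the libraries differ in strand and sampling. A list of 7 T cell genes summed to 48.1 and 39.7 CPM in spiny mouse PWD21 epidermis and to 64.5 and 58.5 CPM in dermis, and none of the 7 was at 0 there. In this comparison Lck was higher in dermis (log2 fold change 0.99, adjusted p = 0.0121, edgeR), Cd2 was lower (-1.06, adjusted p = 0.0284, edgeR), and the other 5 were not called.

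Dpp4, a surface peptidase, was not called between the tissues by edgeR. It was at 62.5 and 63.8 CPM in margin dermis and 20.7 and 19.0 CPM in margin epidermis, and the log2 fold change of 0.84 ± 0.34 did not pass the test (adjusted p = 0.0682, edgeR), although the CPM values did not overlap, and DESeq2 called it. At the wound center its dermis values of 0 to 74.1 CPM spanned the 18.6 and 18.2 CPM of epidermis. The sign there turned on the dermis libraries used, with a log2 fold change of 1.01 (adjusted p = 0.0209, edgeR) for wild-type replicates 1 and 2 and -1.75 (adjusted p = 0.144, edgeR) for replicates 3 to 5. In the spiny mouse at PWD21, 12.1 and 12.8 CPM in dermis stood beside 11.7 and 14.3 CPM in epidermis (log2 fold change -0.18 ± 0.24, adjusted p = 0.551, edgeR).

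Ly6a, the gene of Sca-1, was at 189 to 367 CPM in the 7 wild-type dermis libraries and at 53.3 to 91.2 CPM in the 4 epidermis libraries of the laboratory mouse. Dermis was higher by a log2 fold change of 1.25 ± 0.30 at the margin (adjusted p = 0.00627, edgeR) and 0.93 ± 0.24 at the center (adjusted p = 0.00987, edgeR). Without 1 or the other margin dermis library, or 1 or the other center epidermis library, the adjusted p was 0.0531 to 0.0978. In the 12 spiny mouse libraries Ly6a never exceeded 2.10 CPM, at 0 to 71 counts per library. Ly6a belongs to a cluster of similar genes, reads that fit several copies may not have been counted, and the spiny mouse reads were aligned to the laboratory mouse genome, so that a low count does not show that the spiny mouse gene was silent.

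In the 21 other genes of the PDGF pathway, fixed as a list, 6 were higher and 3 lower in dermis at the laboratory mouse margin, 6 higher and 5 lower at the center, and 11 higher and 2 lower in the spiny mouse. Of all genes, 47.9%, 51.7% and 62.9% were called in these comparisons, so that the counts do not set the list apart. Pdgfrl, a receptor-like gene, Pdgfd, a further ligand of PDGFRB, and Nrp1, a coreceptor, were among those higher in dermis in all 3. Pdgfd was at 22.8 and 34.8 CPM in laboratory mouse margin dermis against 0.737 and 0 CPM in epidermis, and at 89.7 and 55.4 CPM in spiny mouse PWD21 dermis against 0.0591 and 0 CPM in epidermis. The median log2 fold change of the list was 0.03, -0.23 and 0.59 in the 3 comparisons.

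**Figure D2:**
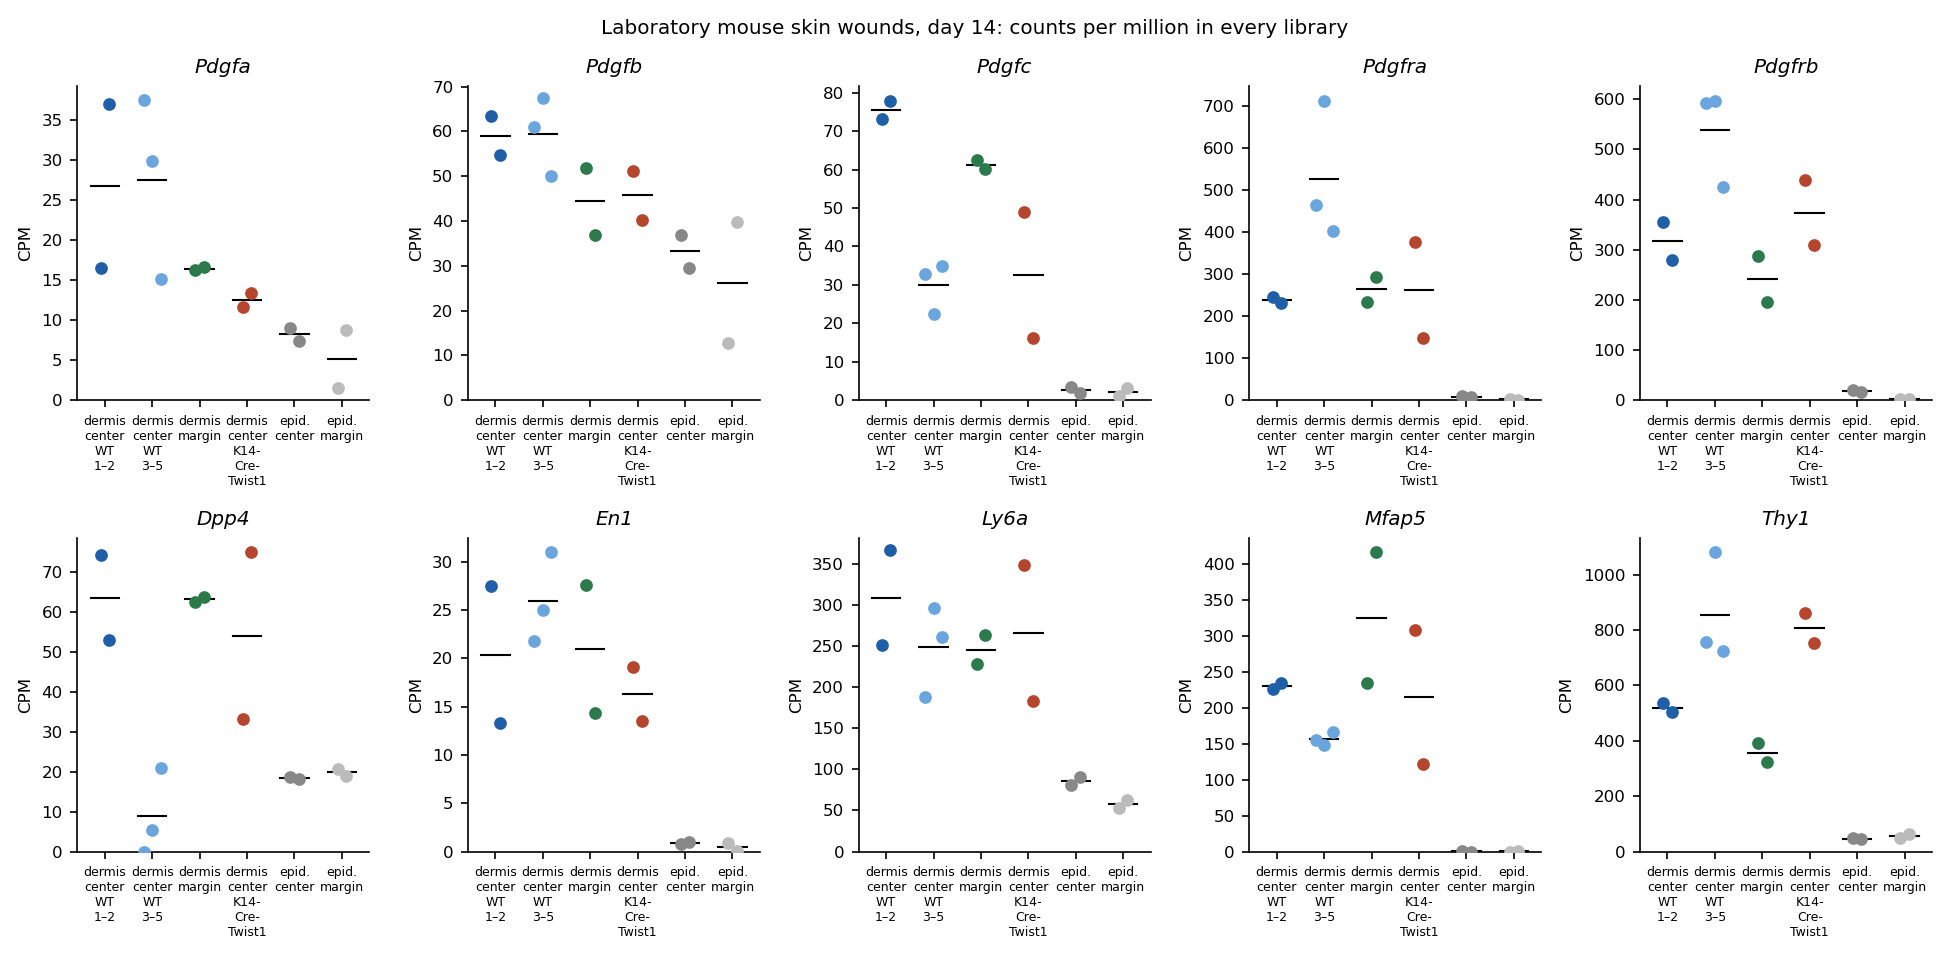
CPM (y axis, from 0) of each gene in every laboratory mouse library at PWD14, by tissue, region and genotype, with bars at the group means. Wild-type wound center dermis is drawn as replicates 1 and 2, compared with the margin, and replicates 3 to 5, compared with K14-Cre-Twist1. Pdgfra, Pdgfrb, En1, Mfap5 and Thy1 are high in dermis and near the axis in epidermis, and Dpp4 is at 0 to 20.9 CPM in replicates 3 to 5.

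The unwounded and healing dermis of the spiny mouse differed most in the receptors, En1 and Dpp4. At PWD21 against PWD0, Pdgfra, Pdgfrb, En1 and Pdgfc were higher and Dpp4 was lower, 5 of the 9 genes tested, where 26.2% of all genes were called in either direction. Ly6a was too low to be tested. The PWD0 dermis libraries held 5669760 and 6804714 reads on genes (27.0% and 32.8% of reads), and those of PWD21 21927269 and 34751956 (44.9% and 52.9%). Depth and day cannot be told apart in this comparison. The median log2 fold change of the 9 genes was 0.99, against 0.03 over all genes.

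Pdgfra was at 55.9 and 75.8 CPM in unwounded dermis, at 289 CPM at PWD14, at 407 and 305 CPM at PWD21 and at 249 CPM at PWD28. Every wounded library exceeded both unwounded ones, and PWD21 was higher than PWD0 by a log2 fold change of 2.34 ± 0.29, or 5.06-fold (adjusted p = 0.0013, edgeR). Pdgfrb was at 27.3 and 59.1 CPM at PWD0, 135 CPM at PWD14, 227 and 371 CPM at PWD21 and 240 CPM at PWD28. Its log2 fold change of 2.73 ± 0.40, or 6.64-fold, also passed the test (adjusted p = 0.00251, edgeR). PWD14 and PWD28 dermis had 1 library each and so no replicate check.

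En1 was at 13.1 and 20.9 CPM at PWD0, at 86.9 CPM at PWD14, at 56.1 and 86.8 CPM at PWD21 and at 50.3 CPM at PWD28. The rise from PWD0 to PWD21 was 3.99-fold (log2 fold change 1.996 ± 0.34, adjusted p = 0.00498, edgeR), and no wounded library fell into the unwounded range. Dpp4 moved the other way, from 44.8 and 43.5 CPM at PWD0 to 2.94 CPM at PWD14, 12.1 and 12.8 CPM at PWD21 and 18.04 CPM at PWD28. It was lower at PWD21 by a log2 fold change of -1.94 ± 0.31, or 3.83-fold (adjusted p = 0.00352, edgeR).

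The promoters of Pdgfra, En1, Dpp4 and Pdgfc, which was also higher at PWD21, are shown because these genes were called between PWD21 and PWD0 and because Twist1, the factor the study is about, binds the E-box motif CANNTG. They are sequences of the laboratory mouse from RefSeq (GRCm38.p6), 5′ to 3′, with E-boxes in capitals. The Pdgfra window, chr5:75152001-75152250 on the plus strand, lies before 1 annotated start and inside the gene's span, which begins further upstream. The En1 window is chr1:120602237-120602417 on the plus strand and the Dpp4 window chr2:62412316-62412481 on the minus strand, both cut where an annotated exon or the gene's span begins. The Pdgfc window is chr3:81036166-81036415 on the plus strand, just before the gene's span.
Pdgfra: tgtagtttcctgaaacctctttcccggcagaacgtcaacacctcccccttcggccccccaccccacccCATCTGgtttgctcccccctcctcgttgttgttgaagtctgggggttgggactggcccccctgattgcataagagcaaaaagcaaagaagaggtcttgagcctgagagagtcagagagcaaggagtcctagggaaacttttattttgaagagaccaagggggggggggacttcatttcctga
En1: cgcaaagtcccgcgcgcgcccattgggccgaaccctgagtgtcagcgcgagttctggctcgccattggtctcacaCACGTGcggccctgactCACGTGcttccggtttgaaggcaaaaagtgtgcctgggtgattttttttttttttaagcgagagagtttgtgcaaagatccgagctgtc
Dpp4: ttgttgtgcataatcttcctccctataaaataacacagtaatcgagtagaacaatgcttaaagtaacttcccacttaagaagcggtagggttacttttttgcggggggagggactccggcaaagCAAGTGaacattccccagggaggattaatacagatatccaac
Pdgfc: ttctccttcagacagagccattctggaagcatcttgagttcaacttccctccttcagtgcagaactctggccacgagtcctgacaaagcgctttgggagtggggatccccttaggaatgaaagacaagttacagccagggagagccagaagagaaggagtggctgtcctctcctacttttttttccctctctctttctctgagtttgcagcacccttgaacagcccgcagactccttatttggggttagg
Pdgfra held 1 E-box, En1 2, Dpp4 1 and Pdgfc 0. CANNTG reads the same on both strands, and among 32851 promoters it was found in 66.2% of windows of 250 bases, 55.7% of windows of 181 and 52.7% of windows of 166, so that a match is common and is no evidence of binding, and the lack of one in Pdgfc says only that these letters are not in its window. The Dpp4 window also held TATAAA, which or its complement TTTATA was found in 7.91% of windows of that length.

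The ligands moved less in spiny mouse dermis. Pdgfc was at 7.41 and 6.76 CPM at PWD0 and 19.6 and 15.8 CPM at PWD21, beside 29.3 CPM in the single library of PWD14, with a log2 fold change of 1.20 ± 0.37 at PWD21 (adjusted p = 0.0433, edgeR). That call was lost without PWD21 replicate 1 (adjusted p = 0.208), PWD21 replicate 2 (0.141) or PWD0 replicate 2 (0.0897). Pdgfa was at 45.0 and 58.6 CPM at PWD0 and 25.4 and 37.1 CPM at PWD21 (log2 fold change -0.82 ± 0.31, adjusted p = 0.0837, edgeR), and Pdgfb at 8.11 and 15.7 CPM and 19.0 and 30.7 CPM (log2 fold change 0.99 ± 0.40, adjusted p = 0.1, edgeR). For neither did the PWD0 and PWD21 values overlap, and neither passed the test.

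Mfap5 was at 25.4 and 11.5 CPM at PWD0, 44.4 and 21.0 CPM at PWD21 and 11.6 CPM at PWD28, and these groups overlapped. In the 1 library of PWD14 it was at 235 CPM, above every other spiny mouse value, with no replicate to compare. Thy1 stayed between 37.5 and 91.5 CPM in the 6 dermis libraries and did not pass the test (log2 fold change -0.60 ± 0.35, adjusted p = 0.237, edgeR).

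**Figure D3:**
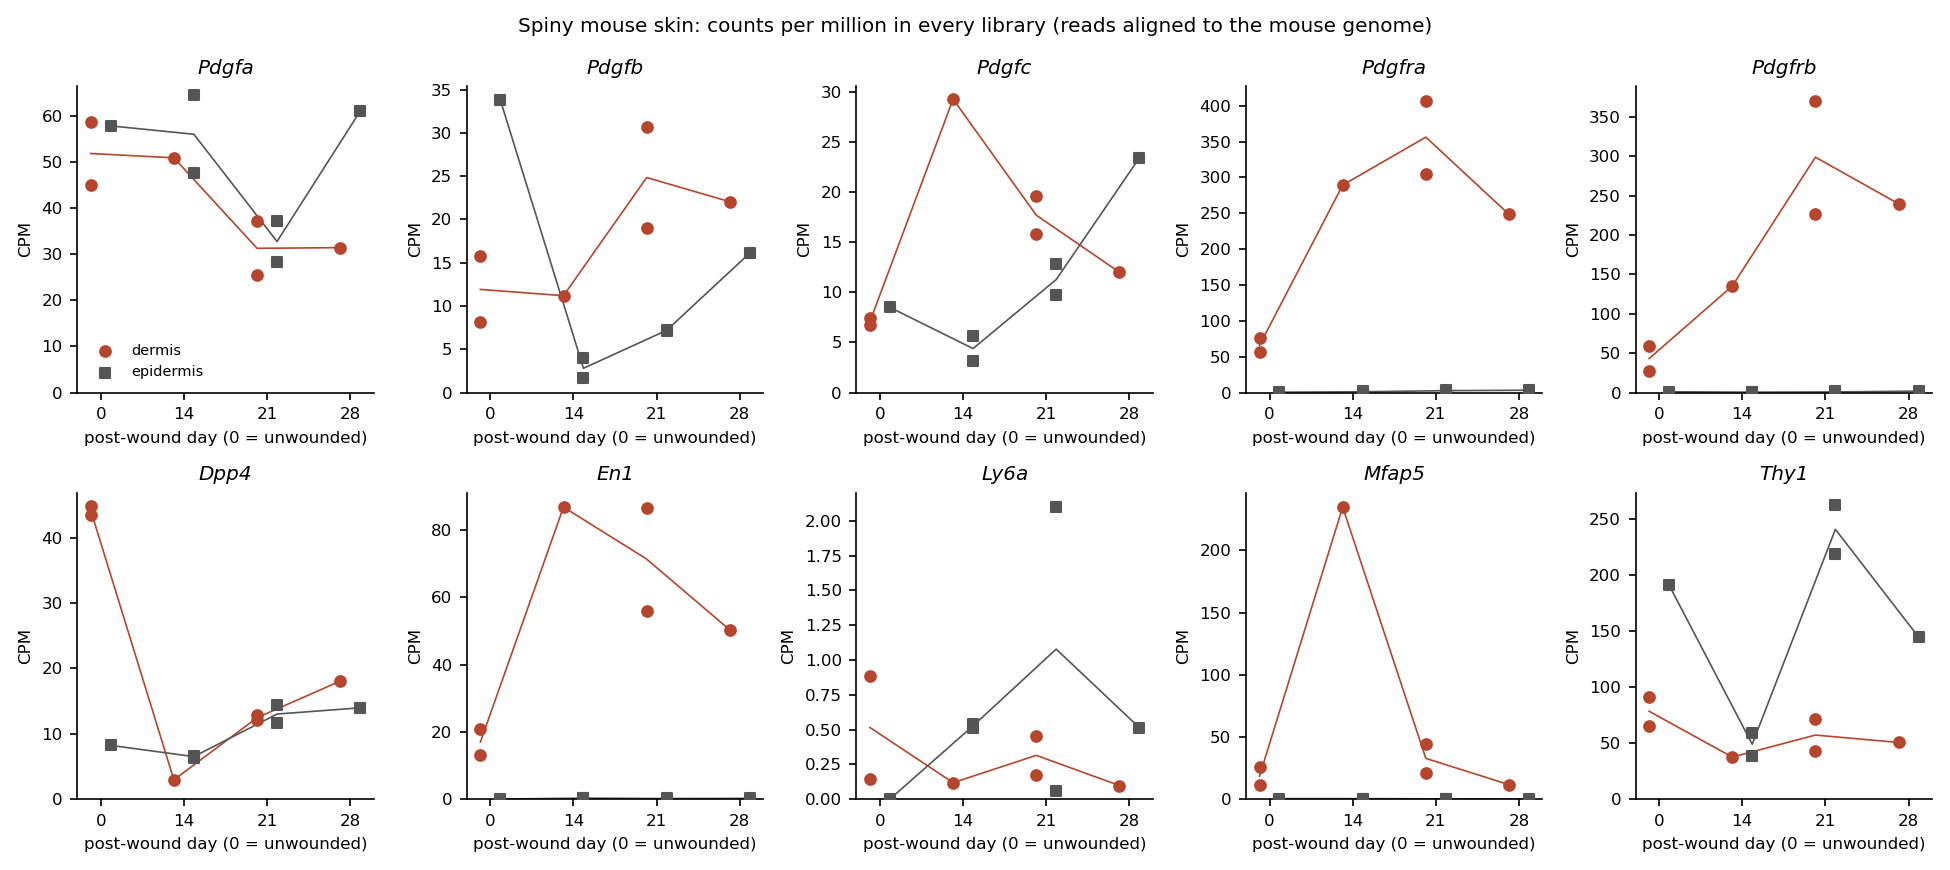
CPM (y axis, from 0) of each gene in every spiny mouse library by post-wound day (x axis, evenly spaced categories), with dermis as circles, epidermis as squares and lines through the means. In dermis Pdgfra, Pdgfrb and En1 are higher in all wounded libraries than in the 2 unwounded ones and Dpp4 is lower, and the Mfap5 value of 235 CPM is a single PWD14 library.

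Of the 21 listed pathway genes, 4 were higher at PWD21 than at PWD0, none was lower and 17 did not pass the test, where 26.2% of all genes were called. The median log2 fold change of the list was 0.59. Pdgfd was at 1.23 and 5.14 CPM at PWD0 and at 89.7 and 55.4 CPM at PWD21 (log2 fold change 4.43 ± 0.56, adjusted p = 0.00129, edgeR). It was at 14.5 CPM at PWD14 and at 16.2 CPM at PWD28, so that its highest levels were those of PWD21. Plat, the protease that activates PDGF-C, rose from 29.6 and 29.7 to 162 and 121 CPM (log2 fold change 2.14 ± 0.29, adjusted p = 0.00179, edgeR). Nrp1 (1.41) and Sos1 (1.20), an exchange factor downstream of the receptors, were the other 2.

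**Figure D4:**
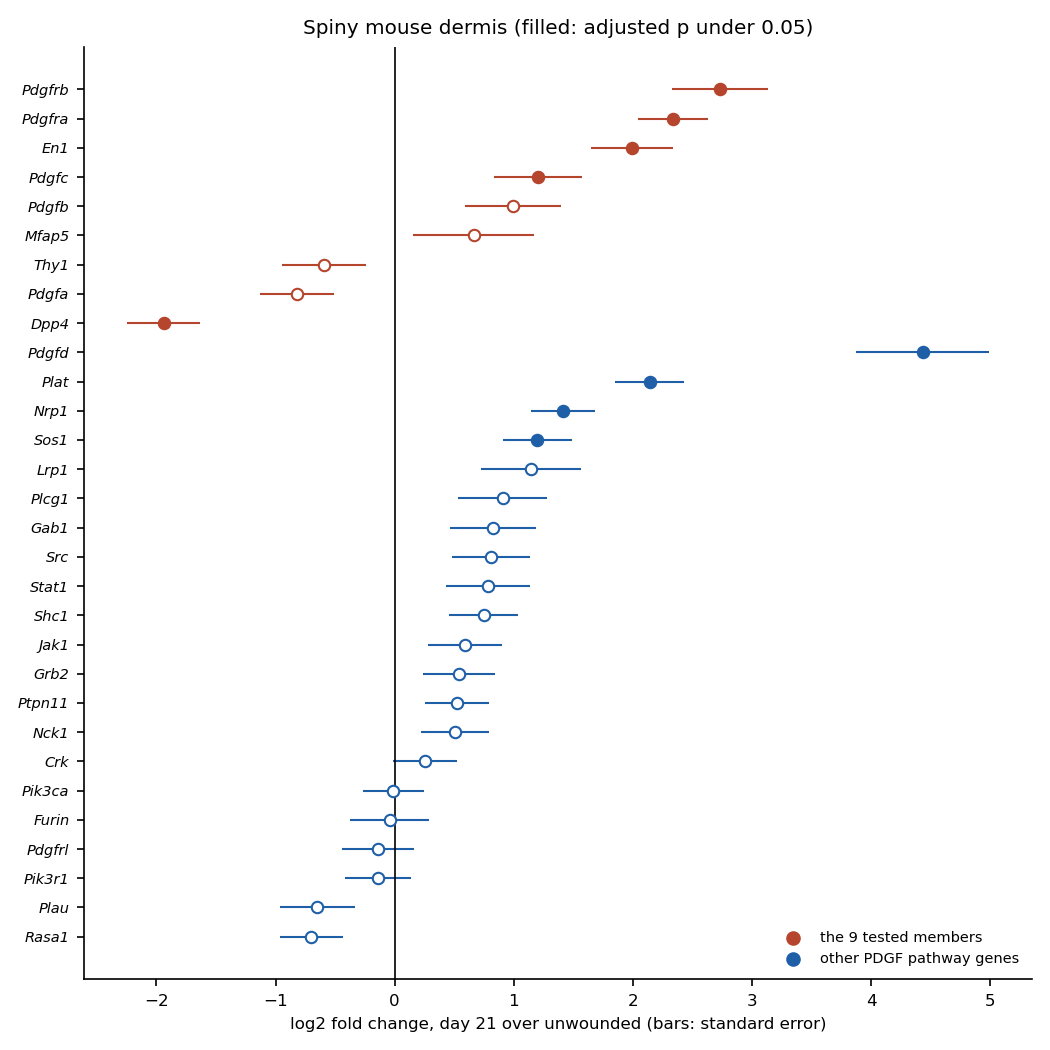
Log2 fold change of spiny mouse dermis at PWD21 over PWD0 (x axis) for the 9 genes tested and 21 other PDGF pathway genes (rows), with bars of 1 standard error and filled points for an adjusted p under 0.05. Pdgfd (4.43), Pdgfrb (2.73) and Pdgfra (2.34) lie furthest to the right and Dpp4 (-1.94) furthest to the left.

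Lineage lists did not move as blocks, and 26.2% of all genes were called at PWD21 against PWD0. Of 12 papillary fibroblast genes, 4 were higher at PWD21 (Lrig1, Apcdd1, Ntn1 and Trps1) and 1 was lower (Crabp1). Of 14 tested reticular, hypodermal and fascial genes, 3 were higher (Mest, Cd248 and Fbn1) and 2 lower (Pi16 and Cd55). Pi16, which with Dpp4 marks adventitial and fascial fibroblasts, was at 1893 and 1782 CPM at PWD0, 7.30 CPM at PWD14, 30.4 and 37.4 CPM at PWD21 and 33.8 CPM at PWD28 (log2 fold change -5.87 ± 0.44, adjusted p = 0.000222, edgeR). Pi16 and Dpp4 were both highest in unwounded dermis and lowest in the PWD14 library. Lists of other cells moved too: 9 of 10 keratinocyte genes, 7 of 8 skeletal muscle genes and all 7 adipocyte genes were lower at PWD21 and none higher, and 3 of 9 endothelial and 2 of 8 pericyte genes were higher with 0 and 1 lower. Their part in the changes of Dpp4, En1 and the receptors was not tested. Of 12 fibroblast matrix genes, 4 were higher and none lower (median log2 fold change 0.63), and those 4, Col6a1 (3.20), Col5a1 (3.10), Lum (2.29) and Mmp2 (2.17), encode collagens, a proteoglycan and a gelatinase of the dermis.

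In spiny mouse epidermis, PWD14 and PWD21 were the times with 2 libraries each, and 2 of the 7 genes tested were called, where 46.6% of all genes were. Pdgfa was at 64.5 and 47.5 CPM at PWD14 and 37.1 and 28.4 CPM at PWD21, higher at PWD14 by a log2 fold change of 1.32 ± 0.23 (adjusted p = 0.000886, edgeR). Unwounded epidermis and PWD28 epidermis, with 1 library each, were at 57.8 and 61.0 CPM, so that the PWD21 values were the lowest of the 6. Thy1 went the other way, with 38.6 and 59.3 CPM at PWD14 and 219 and 262 CPM at PWD21 (log2 fold change -1.75 ± 0.20, adjusted p = 9.96e-05, edgeR), and it was at 191 CPM at PWD0 and 145 CPM at PWD28. Of the 7 T cell genes, 3 (Cd3d, Cd3g and Cd2) were higher at PWD14 than at PWD21, none was lower and 4 were not called, and the list summed to 59.4 and 47.0 CPM at PWD14 and to 48.1 and 39.7 CPM at PWD21. The part of T cells in the Thy1 difference was not tested. Pdgfb was at 33.8 CPM in unwounded epidermis, at 3.95 and 1.66 CPM at PWD14, at 7.24 and 7.14 CPM at PWD21 and at 16.1 CPM at PWD28. Its difference between PWD14 and PWD21 did not pass the test (adjusted p = 0.106, edgeR). The single PWD0 and PWD28 libraries were also the epidermis libraries high in Xist (69.9 and 153 CPM), and day and this difference cannot be told apart there. With library size alone the median of all genes moved from -0.04 to -0.59 and 5 genes were called, Dpp4, Pdgfb and Pdgfc being then also lower at PWD14. Of all 12889 genes, 54.8% were called in that fit, 5722 lower and 1335 higher at PWD14. The adipocyte list summed to 6304 and 5160 CPM at PWD14 and 1351 and 1055 CPM at PWD21, mostly as Fabp4, which keratinocytes and capillaries can also express.

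The study took the wound center as the region in which hair forms anew in the laboratory mouse and the margin as the region in which it does not. None of the 10 genes was called between center and margin dermis, with 0.85% of all genes called. In edgeR's quasi-likelihood test 1 gene, Thy1, had an unadjusted p under 0.05, the likelihood ratio test called none, and DESeq2 called Thy1. Over all genes the likelihood ratio test called 6.03% and DESeq2 5.02%. Thy1 was at 537 and 504 CPM in center replicates 1 and 2 and at 391 and 322 CPM in the margin, without overlap (log2 fold change 0.63 ± 0.20, adjusted p = 0.194 with edgeR and 0.0198 with DESeq2). Pdgfb (63.4 and 54.8 against 51.9 and 37.0 CPM) and Pdgfc (73.2 and 77.9 against 62.5 and 60.2 CPM) were also without overlap and higher in the center, with log2 fold changes of 0.50 and 0.39 that did not pass the test (adjusted p = 0.457 and 0.474, edgeR). The other 7 overlapped, and Dpp4 (74.1 and 52.9 against 62.5 and 63.8 CPM) and En1 (27.5 and 13.3 against 27.6 and 14.4 CPM) had nearly equal means, the sign of En1 changing from 0.06 to -0.03 without TMM factors. With 2 libraries in each group, values often separate without a difference between the groups, and the share of all genes that did so was not counted. The median log2 fold change of the 10 genes was 0.40, against -0.03 over all genes. None of the 21 other pathway genes, 12 papillary genes or 15 reticular genes was called. In this comparison 6 of 10 keratinocyte genes and 2 of 7 nerve and Schwann cell genes were lower in the center.

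Epidermis of the wound center differed from that of the margin in 1 of the 10 genes, Pdgfrb, with 1.24% of all genes called. Pdgfrb was at 19.6 and 15.9 CPM in the center and at 1.13 and 1.76 CPM in the margin, a log2 fold change of 3.45 ± 0.38, or 10.9-fold (adjusted p = 0.0367, edgeR). Pdgfra, at 8.48 and 6.87 against 3.54 and 0.728 CPM, did not overlap either and did not pass the test (log2 fold change 2.02 ± 0.72, adjusted p = 0.177, edgeR). The sums of the fibroblast and vessel lists were also higher in the center, although few of their genes passed the test. The 12 fibroblast matrix genes summed to 6472 and 5352 CPM in center epidermis and to 2407 and 917 CPM in margin epidermis, with 2 of 12 called higher, and the 9 endothelial genes to 39.1 and 28.1 CPM against 6.69 and 1.72 CPM, with none called. The 8 pericyte and mural genes summed to 196 and 177 CPM against 98.2 and 118 CPM, also with none called. Every gene of these lists had a positive log2 fold change. The medians were 1.609 for the matrix, 3.925 for the endothelial and 2.65 for the pericyte and mural list, beside 3.45 for Pdgfrb. Their part in the Pdgfrb difference was not tested. The call rested on few libraries. It was lost without center replicate 1 (adjusted p = 0.0662), while leaving out margin replicate 1 or 2 gave 5 called genes each, where 36.4% and 50.9% of all genes were called. The margin pair itself differed more than the center pair, with Pdgfa at 1.45 and 8.76 CPM and Pdgfb at 12.7 and 39.7 CPM in the 2 margin libraries. By the sex-linked genes given above, margin replicate 1 came from a male and replicate 2 from a female, and both center libraries came from males.

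The center-to-margin difference of Pdgfrb differed between the tissues. In a fit of all 8 libraries, the contrast in dermis minus that in epidermis was -3.12 ± 0.46 on the log2 scale (adjusted p = 0.0054, edgeR), and Pdgfrb was the 1 gene of 10 called, where 3.48% of all genes were. The median of this value over all genes was -0.31. For Pdgfra the value was -2.18 ± 0.66 (adjusted p = 0.114, edgeR), and for Thy1 it was 0.82 ± 0.34 (adjusted p = 0.27, edgeR).

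Deletion of Twist1 in the epithelium was compared with wild-type replicates 3 to 5 in wound center dermis. Twist1 itself, which the dermis is not meant to lose, was at 73.4 and 44.0 CPM in K14-Cre-Twist1 and at 57.7, 36.3 and 105 CPM in the wild type, so that its level in these libraries does not check the genotype. None of the 10 genes was called by edgeR or DESeq2, where edgeR called 0.0565% and DESeq2 5.56% of all genes. At an unadjusted p under 0.05, edgeR's quasi-likelihood test gave 2 genes (Dpp4 and Pdgfra), DESeq2 gave 2 (Pdgfa and Pdgfra) and the likelihood ratio test gave 0. By the sex-linked genes both K14-Cre-Twist1 libraries came from males and all 3 wild-type ones from females, so that genotype and sex cannot be told apart in this comparison.

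Pdgfra was at 376 and 147 CPM in K14-Cre-Twist1 and at 464, 712 and 404 CPM in the wild type, without overlap (log2 fold change -0.99 ± 0.43, adjusted p = 0.432, edgeR). The lower value, 147 CPM, was that of replicate 2, which held the keratinocyte RNA and the many genes at 0. Pdgfa was at 11.6 and 13.3 CPM in K14-Cre-Twist1 and at 37.4, 29.8 and 15.1 CPM in the wild type, also without overlap (log2 fold change -1.14 ± 0.53, adjusted p = 0.446, edgeR). Dpp4 was at 33.2 and 74.9 CPM in K14-Cre-Twist1, above the 0, 5.44 and 20.9 CPM of the wild type (log2 fold change 2.59 ± 0.94, adjusted p = 0.366, edgeR). En1, at 19.1 and 13.6 CPM against 21.8, 25.1 and 31.0 CPM, was lower without overlap as well (log2 fold change -0.67 ± 0.44, adjusted p = 0.548, edgeR), and the other 6 genes overlapped. The share of all genes whose values separated in this way was not counted, and none of these differences passed the test. With K14-Cre-Twist1 replicate 2 left out no gene was called, and the log2 fold changes were -0.44 for Pdgfra, -1.21 for Pdgfa and 1.94 for Dpp4. With replicate 1 left out, Pdgfra (-1.88, adjusted p = 0.00627) and Dpp4 (3.03, adjusted p = 0.0415) were called, the lone library being taken to vary like the wild-type ones, but 22.5% of all genes were called in that fit, so that 2 of 10 is close to the share of all genes. Among the 9 keratinocyte genes tested, Krt14 was higher in K14-Cre-Twist1 (log2 fold change 9.42, adjusted p = 0.0476, edgeR), and the part of keratinocyte RNA in these values was not tested.

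The wild-type libraries were not alike in these genes. The 5 wild-type wound center libraries fall into replicates 1 and 2, which the study set against the margin, and replicates 3 to 5, which it set against K14-Cre-Twist1. Pdgfra was at 246 and 230 CPM in the former and 404 to 712 CPM in the latter. Dpp4 was at 74.1 and 52.9 CPM in the former and at 0, 5.44 and 20.9 CPM in the latter, where the 0 is among 28615931 reads on genes in replicate 3, the library in which 92 genes of at least 5 CPM elsewhere were at 0. Pdgfc (73.2 and 77.9 against 22.5 to 34.9 CPM), Mfap5 (226 and 235 against 149 to 166 CPM), Thy1 (537 and 504 against 726 to 1082 CPM) and Pdgfrb (355 and 280 against 425 to 597 CPM) did not overlap between these sets either. The share of all genes that did not overlap was not counted, and the sets differed beyond these genes. Over all genes, Pearson's r of log2(CPM + 1) was 0.949 to 0.959 for pairs of libraries across the sets and 0.962 to 0.976 within them.

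Against replicates 1 and 2, the log2 fold change of K14-Cre-Twist1 was 0.21 for Pdgfra and -0.19 for Dpp4, both of the opposite sign (adjusted p = 0.895 and 0.912, edgeR), and again no gene was called. All 4 libraries of that comparison came from males by the sex-linked genes. With replicates 3 to 5 set against the margin, 6 of the 10 genes were called, where 18.9% of all genes were. Thy1 (1.45), Pdgfrb (1.34) and Pdgfra (1.20) were then higher in the center, and Dpp4 (-2.63), Mfap5 (-0.84) and Pdgfc (-0.81) lower, on the log2 scale. By the sex-linked genes, replicates 1 and 2 and both margin dermis libraries came from males and replicates 3 to 5 from females, so that the sets are of different mice. In the comparison of replicates 3 to 5 with the margin, region and sex cannot be told apart, nor can sex, stock and batch between the sets.

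Levels were compared between genes per kb of exon, in the laboratory mouse only, since the spiny mouse reads were aligned to another species' genome. The order in wild-type wound center dermis differed between the sets. In replicates 1 and 2, Ly6a had the highest mean (257 CPM per kb) and Thy1 the next (174 CPM per kb), followed by Mfap5 (64.2), Pdgfrb (57.9) and Pdgfra (23.8), which was also the order of these 5 in margin dermis (204, 119, 90.7, 44.2 and 26.3 CPM per kb). In replicates 3 to 5, Thy1 (286 CPM per kb) was above Ly6a (206), and Pdgfrb (98.3) and Pdgfra (52.6) were above Mfap5 (43.6). The ligands lay below the receptors in both sets, with Pdgfb at 14.2 and 14.3, Pdgfc at 14.9 and 5.90 and Pdgfa at 8.57 and 8.79 CPM per kb in replicates 1 and 2 and in replicates 3 to 5. In wound center epidermis the order was led by Ly6a (71.6), Thy1 (15.6) and Pdgfb (7.98), and Mfap5 was the lowest (0.0353). Neighbours such as Pdgfc and Pdgfb in replicates 1 and 2, or En1 and Pdgfa in either set, overlapped between their libraries.

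The genes whose pattern was most like each of the 10 were sought by Pearson's r of log2(CPM + 1) over the 9 laboratory and the 6 spiny mouse dermis libraries separately, by the smaller r, among 10040 genes that averaged 5 CPM or more in each species. For Pdgfrb they included Col4a1 (r = 0.97 and 0.96) and Col4a2 (0.94 and 0.95), which encode the chains of basement membrane collagen. For Pdgfra they included Fbn1 (0.91 and 0.95), the gene of fibrillin-1, and for Pdgfb Itgb3 (0.92 and 0.87), an integrin of platelets and vessels. Dpp4 was most like Tspan13 (0.94 and 0.94), followed by Sh3tc2 and Tpsb2, a mast cell tryptase. The libraries of a species share depth and the splits given above, and with so few of them these values describe the data and test nothing. Ly6a was under the minimum in the spiny mouse.

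In the mm10 (GRCm38) assembly, to which the reads were aligned, Pdgfra lies on chromosome 5 from 75151322 to 75198206 on the plus strand and Pdgfa on the same chromosome from 138976014 to 139000792 on the minus strand. Pdgfb (79995865 to 80024614) and Ly6a (74994877 to 74998031) are on chromosome 15, both on the minus strand. Pdgfc is on chromosome 3 (81036416 to 81214040), Dpp4 on chromosome 2 (62330073 to 62412315), En1 on chromosome 1 (120602487 to 120607991), Mfap5 on chromosome 6 (122513584 to 122529290), Thy1 on chromosome 9 (44043384 to 44048579) and Pdgfrb on chromosome 18 (61045127 to 61085067). All 10 are annotated as protein-coding genes, and the counts are of reads over their exons.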

How the data were processed

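RNA-seq was read from 25 libraries of mouse and spiny mouse wounds, 1 file each. Each deposited file holds counts of reads for 24500 gene symbols, not normalized, and 5 summary lines, which were left out. The authors aligned reads of both species to mm10 with STAR and counted them on RefSeq genes with htseq-count 0.6.0, and the submitters' processing notes name STAR 2.4.1d. Laboratory mouse libraries were strand-specific and spiny mouse libraries were not, so that reads of a gene and of an antisense partner cannot be told apart there. Low alignment quality set aside 23.4% to 34.4% of reads in the former and 38.0% to 60.5% in the latter.

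Groups came from the labels. Which wild-type center libraries entered which dermis comparison was taken from the library names in the study's heat maps. The 10 genes, the gene lists and the tests were chosen with earlier results of these data known. Tests used R 4.3.3 and edgeR 4.0.16 (filterByExpr, TMM, quasi-likelihood test, prior count 0.125), with adjustment over all genes tested, and were tested on simulated data. This test reports no standard error. Those given here are approximate, the size of the log2 fold change divided by the square root of the test's F statistic. Listed genes were named, up to 4 per list, by size of change among those called, at a mean of at least 1 CPM and without overlap. Other genes were named after their values were seen, and the comparisons with wild-type replicates 1 and 2 only or 3 to 5 only were chosen after seeing the data. Alternatives were DESeq2 1.42.0, edgeR's likelihood ratio test and earlier quasi-likelihood estimate, RLE, library size alone, no filter, at least 10 counts in every library, each library left out and other wild-type sets. Gene positions were those of RefSeq, and strands and exon lengths those of GENCODE, lengths being unions of exons. CPM and figures were made in Python 3.11.15 (pandas 2.3.3).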

Additional observations from a re-analysis of the deposited data

Results flagged for a closer look

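Pdgfrb had a center-to-margin difference that differed between dermis and epidermis of the laboratory mouse, by -3.12 on the log2 scale in a test of the difference itself (adjusted p = 0.0054, edgeR). It was 10.9-fold higher in center than in margin epidermis, at 19.6 and 15.9 against 1.13 and 1.76 CPM, and in dermis the values of center (355 and 280 CPM) and margin (288 and 196 CPM) overlapped. The sums of the fibroblast matrix and endothelial lists were also higher in center epidermis, and their part was not tested. In the 5 wild-type wound center dermis libraries, the only group large enough to look for a single library far from the rest, none of the 10 genes had one. These libraries fall into the male and female sets described above, and a search for a single extreme value can miss such a split.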

How the results depend on the processing

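No paired analysis was possible because replicate numbers were given in accession order and name no shared animal, batch or day. Across the 10 genes, all comparisons and all alternatives, none of 358 values of genes that had been called changed sign, and 67 of 733 values of genes that had not been called did. For the called genes, Thy1 in center against margin dermis and Dpp4, Pdgfra and Pdgfa in the knockout comparison, 397 values kept their direction and side of the threshold, 9 lost the call, 4 gained one and 2 changed sign. The 2 were Dpp4 (-0.19) and Pdgfra (0.21) in K14-Cre-Twist1 against wild-type replicates 1 and 2, an alternative chosen after seeing the data. For center against margin dermis, 0 genes were called, against 1 with DESeq2 and 6 with wild-type replicates 3 to 5 (also chosen after seeing the data). Of all genes, 0.85%, 5.02% and 18.9% were called in these 3 fits. For center against margin epidermis, 1 was called, against 0 with the edgeR 3 quasi-likelihood estimate, which called 0 of all 14165 genes tested. For spiny mouse epidermis, 2 were called, against 5 with library size alone, where 46.6% and 54.8% of all genes were called. The causes were not tested beyond what each alternative's construction shows.

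With each library left out, none of the genes followed here that had been called changed sign. In spiny mouse dermis the log2 fold change ranged from 2.17 to 2.51 for Pdgfra and 2.31 to 3.23 for Pdgfrb. It ranged from 1.62 to 2.32 for En1, 1.02 to 1.42 for Pdgfc and -2.07 to -1.76 for Dpp4. Pdgfrb ranged from 3.31 to 3.82 in center against margin epidermis and from -3.5 to -2.65 in the difference between tissues. In spiny mouse epidermis Pdgfa ranged from 1.04 to 1.56 and Thy1 from -2.05 to -1.51. For K14-Cre-Twist1, where none was called, Pdgfra ranged from -1.88 to -0.44 and Dpp4 from 1.94 to 4.52. The calls lost for Pdgfc, Ly6a and Pdgfrb are given above. Numbers of genes called are not compared here, since most of these fits leave 1 library in a group. The share of all genes called also changed from fit to fit. A group left with 1 library is assumed to vary like the other. Groups of 1 to 3 libraries limit every comparison, and genes of few counts, such as Ly6a in the spiny mouse and Mfap5 in epidermis, have no reliable fold change.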
